A study of Homo sapiens with 31 samples.

Results

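The circular RNAs (circRNAs) of CAMSAP1 and CAMSAP2 were described in human embryonic stem cells and in the retinal tissue derived from them. A circRNA forms when a splice donor joins an acceptor that lies upstream of it, and the reads that cross this back-splice junction are what was counted. Members were all structures whose transcript name belongs to CAMSAP1 or CAMSAP2 in the hg19 GENCODE annotation, which gave 25 of 55371 structures and 4427 of 1029205 back-splice reads (0.43%). CAMSAP1 held 14 structures with 4073 reads, and CAMSAP2 held 11 with 354 reads. CAMSAP3, the remaining gene of the family, had 1 structure with 1 read and is not described further. The rule itself reads only names and positions, but the genes were put forward with earlier results of these libraries known, and which values were used is not recorded. Back-splice read levels and differences from day 0 are therefore treated as the values they were chosen by, and are a description with no test.

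The cells were of H9, an established human embryonic stem cell line. Undifferentiated cells (day 0) were compared with cultures taken toward laminated retinal tissue for 45 or 90 days, each either untreated or with recombinant human IGF-1, an insulin-like growth factor, at 5 ng/ml up to day 37 and 10 ng/ml from then on. Each of the 5 groups had 3 replicates from wells plated together, and ribosome-depleted total RNA was read as paired 100-base reads. The cell line is a single genetic background, and whole cultures were harvested with no selection of embryoid bodies, so a difference in the number of cells of a type and a difference in RNA per cell cannot be told apart. Libraries held between 14992 back-splice reads (day 0 replicate 1) and 108946 (day 45 replicate 1), and all 15 were kept. RNA integrity moved with the day, from 9.8 to 10 at day 0 to 7.6 to 9.1 at day 45 and 7.1 to 8.9 at day 90, and its part in the differences from day 0 was not tested. Only back-splice reads were analysed here, so the labelled cell types could be checked only through circRNAs of their markers. Circles of RMST, a long noncoding RNA of neural differentiation, stood at 0.246 RPM at day 0 and 13.5 RPM at day 45, where RPM is back-splice reads per 1000000 sequenced reads. The pluripotent markers gave too few back-splice reads to check day 0, with 2 reads for LIN28B, 1 for DNMT3B and 1 for L1TD1 in all libraries.

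CAMSAP proteins bind the minus ends of microtubules that are not anchored at a centrosome and protect them from loss of tubulin. Neurons and polarised epithelia keep most of their microtubules away from the centrosome, and CAMSAP2 and CAMSAP3 in particular are known there for organising these arrays, while gamma-tubulin complexes nucleate new filaments and katanins cut them. The circRNAs below are made from the 5′ part of the coding sequence of both genes, which encodes the N-terminal region.

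The sequences across the junction are shown for the 5 circRNAs with at least 100 reads and for the single-exon circle of CAMSAP2, because they define what a back-splice read of each must contain. Each line runs 5′ to 3′ on the strand of the gene, with the last 30 bases of the donor exon in lower case and the first 30 bases of the acceptor exon in capitals (GRCh37, the assembly that hg19 represents).
circCAMSAP1:E3-E2, chr9:138773479-138774924 (-): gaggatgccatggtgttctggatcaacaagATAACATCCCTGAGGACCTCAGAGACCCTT
circCAMSAP1:E7-E2, chr9:138741983-138774924 (-): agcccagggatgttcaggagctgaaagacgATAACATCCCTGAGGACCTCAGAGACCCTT
circCAMSAP1:E7-E4, chr9:138741983-138758382 (-): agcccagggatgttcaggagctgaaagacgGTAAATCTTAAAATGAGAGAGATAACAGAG
circCAMSAP1:E4-E2, chr9:138758302-138774924 (-): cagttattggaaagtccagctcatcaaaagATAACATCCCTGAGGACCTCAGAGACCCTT
circCAMSAP2:E4-E2, chr1:200729967-200784772 (+): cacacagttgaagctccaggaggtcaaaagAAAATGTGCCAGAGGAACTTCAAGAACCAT
circCAMSAP2:E2-E2, chr1:200729967-200730226 (+): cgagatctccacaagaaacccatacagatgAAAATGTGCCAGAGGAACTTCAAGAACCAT
Names give the donor exon and then the acceptor exon, counted in the reference transcripts ENST00000389532 (CAMSAP1) and ENST00000358823 (CAMSAP2). All exons named here lie in the coding sequence, and the intron ended in ag before each acceptor and began with gt after each donor.

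circCAMSAP1:E3-E2, made of exons 2 and 3, dominated the family. It carried 3102 reads, was the 12th most abundant of all 55371 structures and held 76.2% of the CAMSAP1 reads. Its spliced circle is 425 bases long, and exon 3 of it is shown further on.
The other abundant CAMSAP1 circles were E7-E2 with 405 reads (885 bases), E7-E4 with 243 reads (460 bases) and E4-E2 with 156 reads (506 bases). Exons 2 to 7 of circCAMSAP1:E7-E2 are the sum of those in E3-E2 and E7-E4. These 4 and E7-E6 (88 reads) were found in all 15 libraries, and E7-E5, E5-E2 and E7-E3 had 30, 26 and 14 reads. In CAMSAP2, E4-E2 led with 240 reads (506 bases, 67.8% of the reads of the gene), followed by the single-exon circle E2-E2 with 50 reads, E4-E3 with 24, E3-E2 with 13 and E6-E2 with 11. The remaining 12 structures held 25 reads in all, with at most 6 each and 7 of them with 1 read, and did not enter the circRNA fit, which kept structures with at least 10 reads. That filter kept 13 members, 8 of CAMSAP1 and 5 of CAMSAP2, the lowest at 11 reads.

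**Figure D1:**
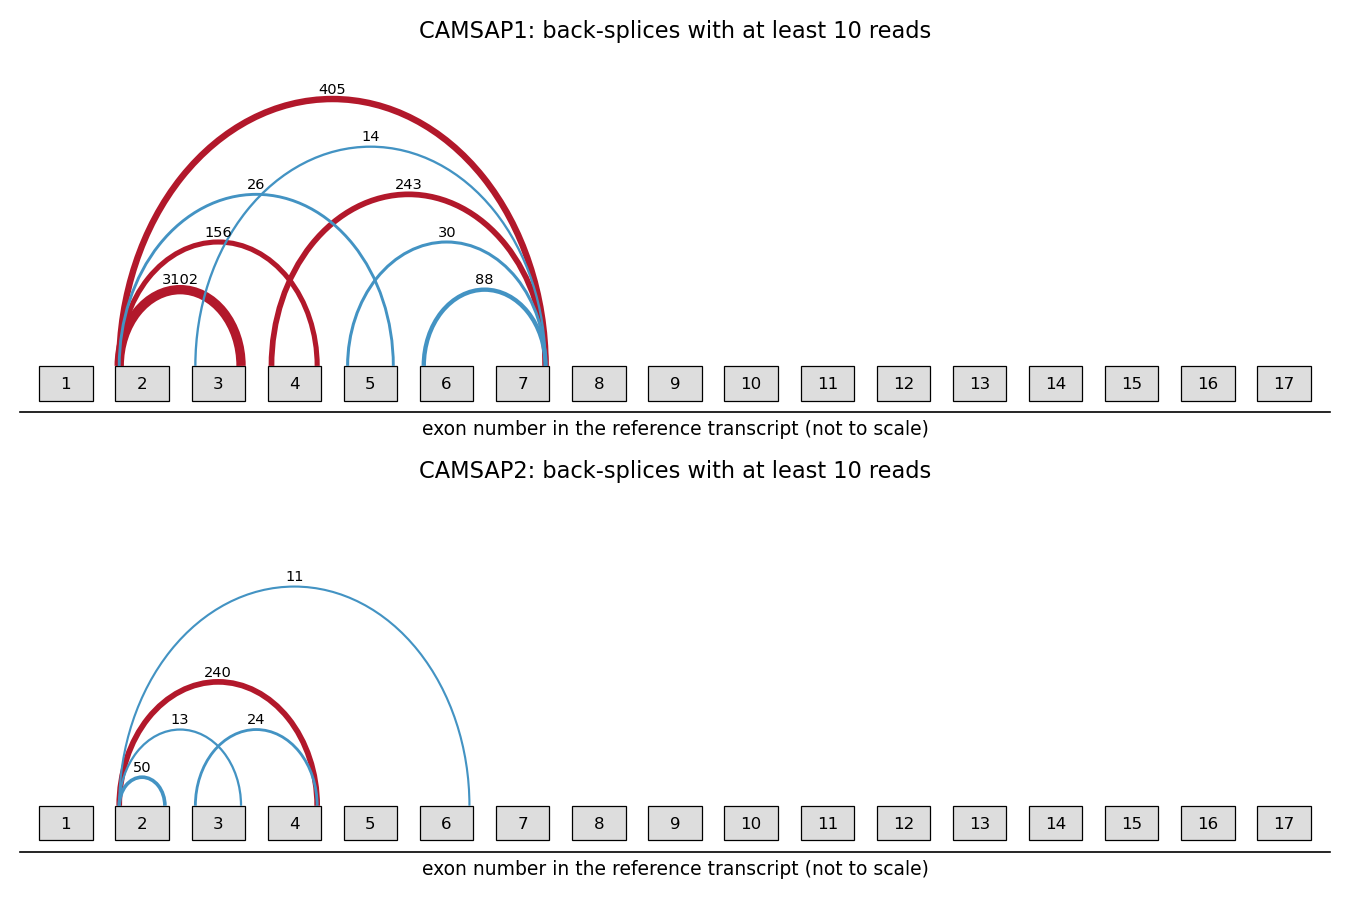
Back-splices with at least 10 reads in CAMSAP1 (top) and CAMSAP2 (bottom), drawn as arcs from the acceptor exon to the donor exon over the 17 exons of each reference transcript (exon widths not to scale). The number on each arc is its reads over 15 libraries, thicker arcs hold more reads on a log scale, and red marks those with at least 100; the arcs gather on exons 2 to 7.

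Reads of both genes entered mostly at exon 2. The exon 2 acceptor took 90.6% of CAMSAP1 reads and 88.7% of CAMSAP2 reads, while over the whole series an exon 2 acceptor took 36.9% of back-splice reads and 21.6% of circRNAs. Exon 1 was in no circle of either gene, which follows from its place, since a first exon has no splice acceptor. The donors of CAMSAP1 were mainly exon 3 with 76.2% of its reads and exon 7 with 19.2%, and the donor of CAMSAP2 was mainly exon 4 with 74.6%. Among the 163 genes with at least 1000 back-splice reads the leading circRNA held a median of 59.7% of the reads, and 51 of them had a more dominant circle than CAMSAP1.

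The paralogs paired the same acceptor exon with different donors. Of the reads that joined exon 3 or exon 4 to exon 2, exon 3 was the donor in 95.3% ± 1.78 (SD, n = 12) for CAMSAP1 and in 5.2% ± 6.03 (SD, n = 12) for CAMSAP2 over the later libraries. The lowest CAMSAP1 value was 93.2% and the highest CAMSAP2 value was 15.8%, so the genes did not overlap. The difference was 90.1 percentage points ± 6.76 (SD) and had the same sign in 12 of 12 libraries. The donors compared were chosen after the reads per circle had been seen, so this is a description with no test. At day 0, CAMSAP1 had 70, 50 and 104 reads from exon 3 against 6, 1 and 7 from exon 4, and CAMSAP2 had 5 reads in replicate 1, all from exon 4.

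Exons 2 to 7 correspond between the paralogs in order and nearly in length, and their identity lay between 60.5% (exon 5) and 66.0% (exon 3) in a global alignment. Exon 3 is shown for both genes because it ends the leading circle of CAMSAP1 and lies inside that of CAMSAP2, with the 107 of 162 bases that are equal at the same position in capitals.
CAMSAP1 exon 3, chr9:138773479-138773640 (-): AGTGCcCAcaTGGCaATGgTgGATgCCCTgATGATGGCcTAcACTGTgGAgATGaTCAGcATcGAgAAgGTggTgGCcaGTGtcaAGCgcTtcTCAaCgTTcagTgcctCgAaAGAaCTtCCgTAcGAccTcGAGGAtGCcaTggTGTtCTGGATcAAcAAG
CAMSAP2 exon 3, chr1:200776504-200776665 (+): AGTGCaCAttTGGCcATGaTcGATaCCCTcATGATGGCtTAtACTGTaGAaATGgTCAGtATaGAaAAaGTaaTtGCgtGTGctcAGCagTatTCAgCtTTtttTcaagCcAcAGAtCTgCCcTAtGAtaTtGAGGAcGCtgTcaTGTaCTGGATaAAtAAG
The exons are equal in length, and equal bases are spread over the whole exon.

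The introns around these exons were long. circCAMSAP1:E3-E2 is preceded by an intron of 23921 bases and followed by one of 15096 bases, and circCAMSAP2:E4-E2 by introns of 20872 and 16555 bases. Across the 1534 circRNAs with at least 100 reads and both flanking introns annotated, the medians were 11834 and 9848 bases. Inverted matches between the 2 introns (blastn, E value up to 1e-10) numbered 59 for circCAMSAP1:E3-E2, the best over 295 bases at 85.1% identity, and 71 for circCAMSAP2:E4-E2, the best over 664 bases at 77.4%. The scarcer circCAMSAP2:E2-E2 and E4-E3 had more, 174 and 158, with the other circles that had any between 33 and 48. There was none for circCAMSAP1:E4-E2, E7-E5 or E7-E3, each of which has a flanking intron of 3847 or 1021 bases. These matches describe the genome sequence, and their part in circle formation was not tested.

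The level of circCAMSAP1:E3-E2 was 0.551 RPM ± 0.195 (SD, n = 3) at day 0, from 0.561, 0.351 and 0.742 RPM in replicates 1 to 3. It was 2.31, 2.11 and 1.31 RPM at day 45 and 1.76, 2.5 and 2.12 RPM at day 45 with IGF-1. At day 90 it was 0.981, 1.7 and 1.77 RPM, and 1.73, 1.41 and 1.59 RPM with IGF-1. All 12 later libraries lay above the 3 at day 0, while the later groups overlapped one another. Back-splice reads of all circRNAs together were separated in the same way, at 106 to 128 RPM at day 0 and at least 309 RPM later. Nothing particular to this circle is read from the separation. The ratio of the day 45 to the day 0 mean was 3.46. It ranked 7th of all circRNAs by counts at day 0, and 16th, 9th, 12th and 15th at day 45, day 45 with IGF-1, day 90 and day 90 with IGF-1.

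The other 3 abundant CAMSAP1 circles were scarcer throughout. circCAMSAP1:E7-E2 had 5, 7 and 9 counts at day 0, 32, 35 and 33 at day 45, 15, 48 and 31 with IGF-1, 16, 38 and 38 at day 90 and 42, 24 and 32 with IGF-1. circCAMSAP1:E7-E4 had 4, 3 and 7 counts at day 0 and between 8 and 29 in the later libraries. circCAMSAP1:E4-E2 had 6, 1 and 7 counts at day 0 and between 3 and 20 later, so its groups overlapped in counts. circCAMSAP1:E7-E5 was the only tested member whose fitted change from day 0 per sequenced read lay below 0 at both days, with 2, 0 and 5 counts at day 0, 0, 1 and 1 at day 45 and 0, 0 and 2 at day 90.

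CAMSAP2 circles were close to the limit of detection at day 0. circCAMSAP2:E4-E2 had 5 counts in day 0 replicate 1 and 0 in replicates 2 and 3. It had 32, 16 and 18 counts at day 45, 13, 20 and 19 with IGF-1, 12, 16 and 23 at day 90 and 24, 15 and 27 with IGF-1. All 12 later libraries were above day 0, as they were for all back-splice reads together. In RPM this was 0.0134 ± 0.0231 (SD, n = 3) at day 0 and 0.176 ± 0.098 at day 45. The single-exon circle circCAMSAP2:E2-E2 had 0 counts in all day 0 libraries, which allows up to 0.00737 RPM over the group (3 counts), and between 2 and 7 counts in every later library. It stood at 0.0417 RPM ± 0.0185 (SD, n = 3) at day 45 and 0.0258 ± 0.00899 at day 90. circCAMSAP2:E3-E2 and E6-E2 also had 0 counts at day 0 and reached at most 4 in a later library. Back-splice reads of all circRNAs together were also lower at day 0, with a mean of 118 RPM against 747 RPM at day 45. Nothing particular to these circles is therefore read from their 0 counts at day 0.

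**Figure D2:**
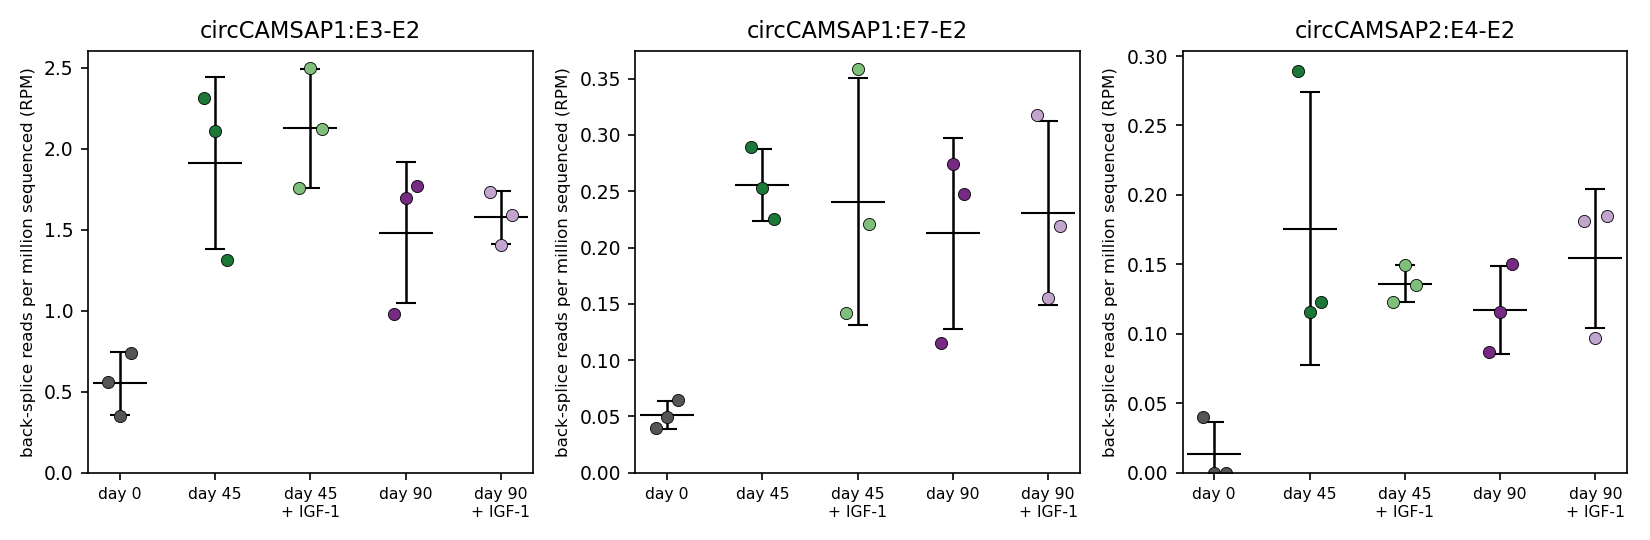
Back-splice RPM of circCAMSAP1:E3-E2, circCAMSAP1:E7-E2 and circCAMSAP2:E4-E2 in the 5 groups, with a point per library, the mean as a bar and the SD as whiskers (n = 3), each panel on its own axis from 0. For E3-E2 of CAMSAP1 the day 0 libraries lie at 0.351 to 0.742 RPM, below all later libraries (0.981 to 2.5 RPM), as they do for all back-splice reads together.

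Summed over all its circles, CAMSAP1 stood at 0.704 RPM ± 0.264 (SD, n = 3) at day 0, 2.52 ± 0.525 at day 45 and 1.93 ± 0.608 at day 90. CAMSAP2 stood at 0.0157 RPM ± 0.0214, 0.309 ± 0.14 and 0.16 ± 0.0388. At day 45 the ratio to day 0 was 3.58 for CAMSAP1 and 19.6 for CAMSAP2, the latter over 6 counts at day 0. Back-splice reads of all genes together were 6.33 times higher per sequenced read at day 45 than at day 0 and 4.11 times higher at day 90. CAMSAP1 thus took a smaller share of all back-splice reads later, with 0.594%, 0.41% and 0.753% in the day 0 replicates and between 0.301% and 0.471% in the 12 later libraries, and the groups overlapped through day 0 replicate 2. CAMSAP2 took 0.0334%, 0% and 0.00558% at day 0 and between 0.0289% and 0.0468% later, overlapping through day 0 replicate 1.

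**Figure D3:**
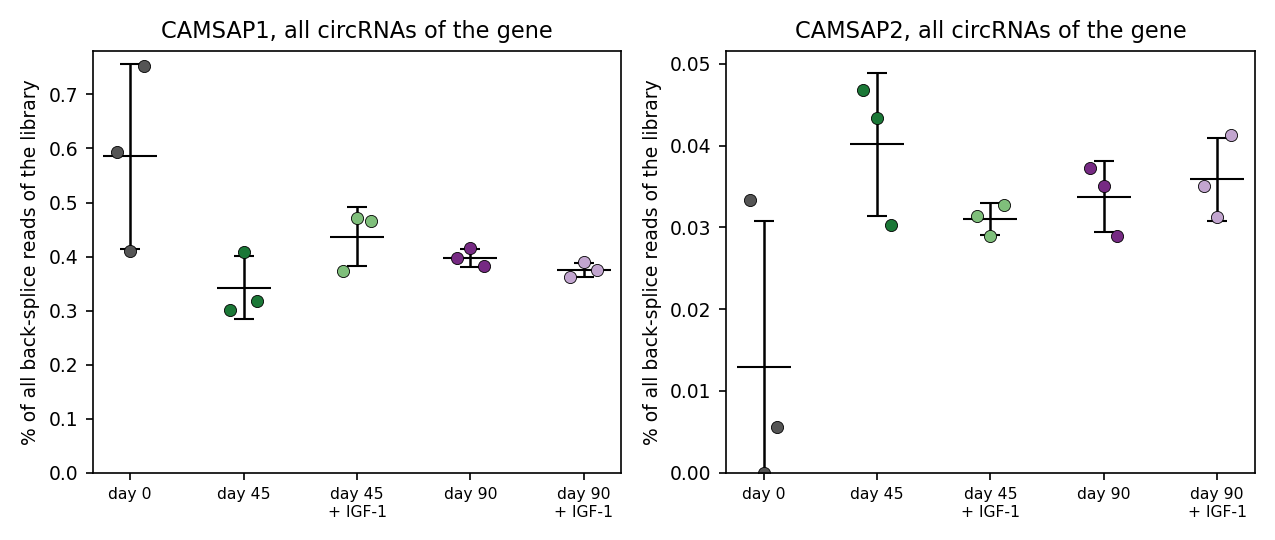
Share of all back-splice reads of a library that came from CAMSAP1 (left) and CAMSAP2 (right), in percent, with a point per library, the mean as a bar and the SD as whiskers (n = 3). CAMSAP1 averages 0.586% at day 0 and 0.343% at day 45, and CAMSAP2 0.013% and 0.0402%, with some overlap between day 0 and later libraries for both.

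In edgeR's quasi-likelihood fit over all genes with libraries scaled to sequenced reads, the log2 change of CAMSAP1 from day 0 was 1.84 (SE 0.37) at day 45 and 1.45 (SE 0.37) at day 90, and it turned to -0.34 and -0.13 with back-splice totals and trimmed-mean (TMM) factors and to -0.65 and -0.39 with DESeq2's size factors. CAMSAP2 had 4.28 (SE 0.60) and 3.35 (SE 0.63), and kept its sign at 2.10 and 1.82 with TMM and 1.79 and 1.56 with size factors. Its size rests on day 0 replicate 1, which held 5 of its 6 day 0 counts: without that library it was 6.11 and 5.17, and without replicate 2 it was 3.69 and 2.76. The median of all 4933 genes tested at day 45 moved from 2.81 to 0.81 and 0.52 under those scalings. Set against it, CAMSAP1 at day 45 lay below the median gene by 0.97, 1.16 and 1.17 on the log2 scale, and CAMSAP2 lay above it by 1.47, 1.29 and 1.27. A scaling shifts all genes by a similar amount, so these distances are close to one another by construction and are not 3 separate results. Both genes passed an adjusted p of 0.05 from day 0 to each later day, where 63.8% of all genes did so at day 45 (63.5% higher) and 46% at day 90 (45.4% higher). Of the 13 circRNAs tested, 8 passed at day 45 and 5 at day 90, all higher, where 41.2% and 22% of all circRNAs passed (40.9% and 21.7% higher). Without day 0 replicate 1 or replicate 2 the count at day 45 was 5, and without replicate 2 the count at day 90 was 3. These counts use the contrast on which the genes were selected, and nothing is read from them.

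At the level of single circles, circCAMSAP1:E3-E2 changed by 1.79 (SE 0.40) on the log2 scale from day 0 to day 45 and by 1.43 (SE 0.40) to day 90 per sequenced read, and by 0.03 and 0.20 with TMM and -0.56 and -0.30 with size factors. circCAMSAP1:E7-E2 had 2.29 (SE 0.51) and 2.03 (SE 0.51), E7-E4 had 2.33 (SE 0.57) and 1.67 (SE 0.58), and E4-E2 had 1.38 (SE 0.62) and 0.92 (SE 0.63) per sequenced read. With size factors these became -0.04 and 0.27 for E7-E2, 0.0020 and -0.05 for E7-E4 and -0.86 and -0.84 for E4-E2, and with TMM 0.54 and 0.78, 0.58 and 0.45, and -0.27 and -0.32. circCAMSAP2:E4-E2 had 3.70 (SE 0.67) and 3.15 (SE 0.68) per sequenced read, 1.95 and 1.98 with TMM and 1.37 and 1.48 with size factors. Without day 0 replicate 1, which held all 5 of its day 0 counts, the fitted values were 7.58 and 7.03 against a day 0 of 0 counts and are no measure of size, and without replicate 2 they were 3.12 and 2.56. Per sequenced read all 4 CAMSAP1 circles lay below the median of the 12498 circRNAs tested, which was 2.87 at day 45 and 2.33 at day 90, and circCAMSAP2:E4-E2 lay above it. Of the 96 circRNAs with at least 50 counts at day 0, a set chosen for its depth there, the median ratio of day 45 to day 0 RPM was 2.74, and 57 had a lower ratio than the 3.46 of circCAMSAP1:E3-E2.

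**Figure D4:**
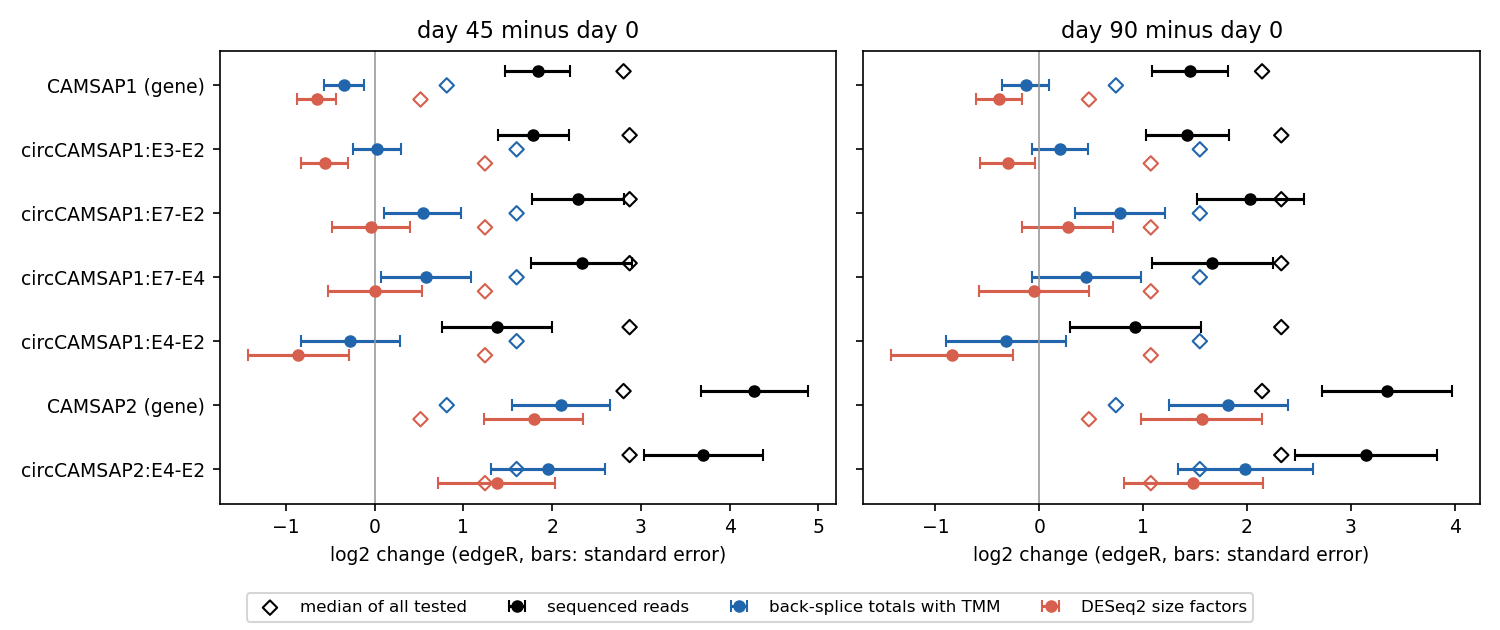
Log2 change from day 0 to day 45 (left) and day 90 (right) for both genes and the 5 circRNAs with at least 100 reads, under 3 library scalings (colours). Filled points are edgeR estimates with standard errors and open diamonds are the median of all genes (for the gene rows) or all circRNAs tested. At day 45 CAMSAP1 lies left of its diamond (1.84 against 2.81 per sequenced read) and CAMSAP2 right of it (4.28 against 2.81). A scaling shifts points and diamonds by a similar amount.

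The balance between the paralogs differed between day 0 and later. CAMSAP2 gave 2.02% ± 2.88 (SD, n = 3) of the reads of both genes at day 0 and 8.46% ± 1.99 (SD, n = 12) later. The day 0 replicates had 5 of 94, 0 of 62 and 1 of 136 reads from CAMSAP2, where 0 of 62 has a 95% Wilson interval up to 5.83%. The later libraries ranged from 5.79% to 13.5%, all above the highest day 0 value of 5.32%. The CAMSAP1 share differed correspondingly, by -6.44 percentage points (later minus day 0) with all later libraries and of -7.18 with the 6 untreated ones. Day 0 replicate 1 lay close to the later libraries. This comparison uses the day 0 difference on which the genes were selected, so it carries no test. Between untreated day 45 (10.6% ± 2.53) and day 90 (7.81% ± 0.786, SD, n = 3 each) the CAMSAP2 share did not overlap, but 3 against 3 libraries cannot go below the exact permutation p of 0.1 that this gave. As a ratio within libraries it does not depend on the scaling.

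**Figure D5:**
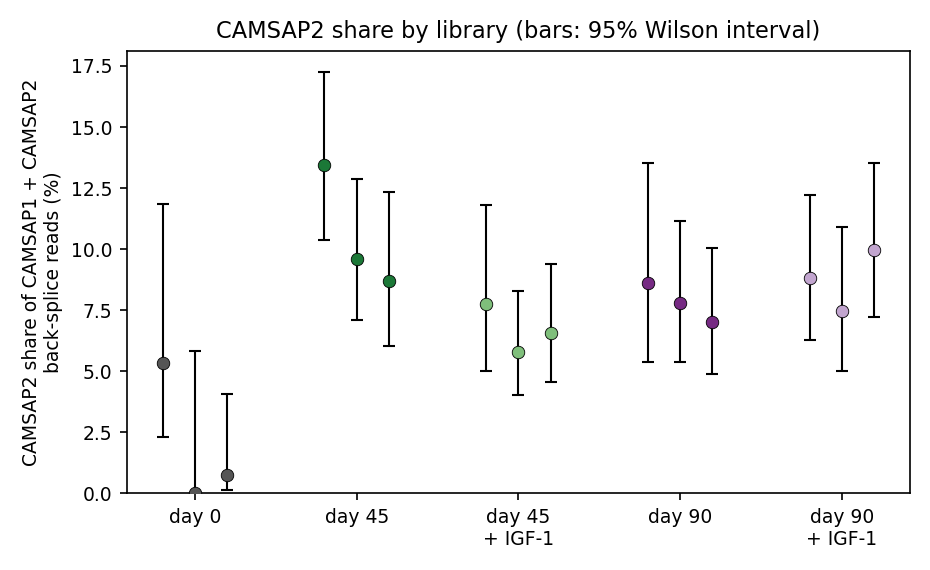
CAMSAP2 reads as a percent of CAMSAP1 plus CAMSAP2 back-splice reads, with a point per library and its 95% Wilson interval (counting error only). The day 0 libraries lie at 0% to 5.32% and the 12 later libraries at 5.79% to 13.5%.

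The share of CAMSAP1 reads on its leading circle overlapped between day 0 and later. circCAMSAP1:E3-E2 held 78.8% ± 1.81 (SD, n = 3) of CAMSAP1 reads at day 0 and 76.2% ± 3.98 (SD, n = 12) later. The difference of -2.62 points was smaller than the SD of the later libraries. Like the other differences from day 0, it is a description with no test. Libraries ranged from 67.6% in day 45 replicate 3 to 82.3% in day 45 replicate 1 with IGF-1. Circles ending at exon 7 held 16.8% of the CAMSAP1 reads at day 0, and between 17.7% and 21.1% in the later groups. circCAMSAP2:E4-E2 held 68.7% ± 11.1 (SD, n = 12) of CAMSAP2 reads later, and the 6 reads at day 0 are too few to compare.

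Between day 45 and day 90 without IGF-1 no member passed the threshold (edgeR quasi-likelihood test, Benjamini-Hochberg adjusted p), where 0.08% of all circRNAs and 0.385% of all genes did (0.016% and 0.101% higher). The log2 change of CAMSAP1 was -0.38 (SE 0.35, adjusted p = 0.589) and that of CAMSAP2 was -0.93 (SE 0.44, adjusted p = 0.33), against a median of -0.64 over all genes. At an unadjusted p under 0.05 the edgeR test had CAMSAP2 among the genes, and 3 of 13 circRNAs, circCAMSAP2:E4-E3, E3-E2 and E6-E2, where 1201 of 12498 circRNAs and 703 of 4933 genes had such a p. DESeq2 had 0 of the 13 circRNAs and 1 of the 2 genes at an unadjusted p under 0.05. These 3 were named after their values were seen, and had 15, 9 and 5 counts at day 45 and 2, 1 and 0 at day 90. The share of all back-splice reads was 0.343% ± 0.0579 at day 45 and 0.398% ± 0.0166 at day 90 for CAMSAP1 (SD, n = 3 each, exact permutation p = 0.3) and 0.0402% ± 0.00875 and 0.0338% ± 0.00436 for CAMSAP2 (exact permutation p = 0.3).

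A change with IGF-1 was not detectable in either gene among these libraries. No member passed at day 45, where 0.016% of all circRNAs and 0.0203% of all genes did, or at day 90, where 0.008% and 0.0203% did (edgeR, adjusted p). At an unadjusted p under 0.05 there were 2 members at day 90 and none at day 45, where 521 and 572 of all 12498 circRNAs had such a p, and DESeq2 had none of the 13 at either day even without adjustment. The 2 were circCAMSAP1:E7-E5, with 7, 3 and 3 counts with IGF-1 and 0, 0 and 2 without, and circCAMSAP2:E6-E2, with 2, 0 and 3 counts against 0 in all replicates, both named after their values were seen. CAMSAP1 changed by 0.11 (SE 0.35, adjusted p = 0.993) at day 45 and by 0.16 (SE 0.35, adjusted p = 1) at day 90 on the log2 scale. CAMSAP2 changed by -0.67 (SE 0.44, adjusted p = 0.993) and by 0.37 (SE 0.45, adjusted p = 1). With both days together, CAMSAP1 stood at 2.43 RPM ± 0.513 with IGF-1 and 2.22 ± 0.602 without (SD, n = 6 each), a difference of 0.212 RPM (exact permutation test within days, p = 0.465). CAMSAP2 stood at 0.199 RPM ± 0.0343 and 0.234 ± 0.123 (SD, n = 6 each, exact permutation p = 0.6). The smallest p this test allows is 0.005. The effect of IGF-1 did not pass as different between the days for any member, and no circRNA or gene of the whole table did (0%), with 1 of 13 member circRNAs (circCAMSAP2:E6-E2), 603 of 12498 circRNAs and 217 of 4933 genes at an unadjusted p under 0.05 and 0 called by DESeq2 after adjustment.

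Other genes of the microtubule network were read from lists chosen with earlier results of these data known. Higher and lower in these lists mean calls at an edgeR adjusted p under 0.05, not the direction of change alone. Of 21 genes of the minus end and its partners, 15 could be tested. Of these, 10 were called higher at day 45 than at day 0 and 9 at day 90, with none called lower. Their median log2 change at day 45 was 2.49 against 2.81 for all genes. CLASP1 and CLASP2, which stabilise microtubules at the plus end and at the Golgi, had 2.16 (SE 0.44) and 2.62 (SE 0.53) at day 45. KATNAL1, a katanin subunit of the severing family, had 3.53 (SE 0.57). The minus end list thus includes genes that act at the plus end, so the lists do not separate the ends of the filament. Of 23 genes of the gamma-tubulin complex, augmin and its anchors, 12 were tested. Of these, 8 were called higher at day 45 and 4 at day 90, with a median of 2.11 at day 45. AKAP9 and PCNT, which anchor gamma-tubulin complexes, had 3.45 (SE 0.63) and 1.80 (SE 0.51), and TUBGCP3, a subunit of that complex, had 1.23 (SE 0.53). Of 16 genes of the plus end and lattice, 12 were tested. Of these, 10 were called higher at day 45 and 9 at day 90, with a median of 3.67 at day 45. TTBK2, a tau tubulin kinase, had 4.03 (SE 0.50), and SLAIN2 and SLAIN1, which act with CLIP and EB proteins at growing plus ends, had 3.95 (SE 0.51) and 3.42 (SE 0.53). At day 45 the minus end, gamma-tubulin and plus end lists thus had 66.7%, 66.7% and 83.3% of their tested genes called higher, where 63.5% of all genes were. At day 90 they had 60%, 33.3% and 75% called higher, where 45.4% of all genes were. None of these list genes passed between day 45 and day 90 or with IGF-1. Of 13 neural and retinal markers 4 were tested and 3 were called higher at day 45. These were RMST at 5.78 (SE 0.43), RIMS1 at 6.43 (SE 0.67) and RIMS2 at 1.28 (SE 0.42). All of these values are log2 changes per sequenced read, so they carry the shift of all genes given above.

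The pattern of each gene over libraries was compared with that of 1905 genes with at least 100 reads, by Pearson's r of the log2 share of back-splice reads over 15 libraries (pseudocount of 0.5 counts). Most like CAMSAP1 were CRKL (r = 0.874), CCDC134 (0.864), TMX1 (0.858), TNFRSF21 (0.856) and FAM169A (0.842). Most like CAMSAP2 were ATP8A1 (r = 0.932), PPWD1 (0.929), TOGARAM1 (0.928), NCOA2 (0.925) and IFT81 (0.924). The paralogs themselves had an r of -0.394. CAMSAP2 had 5, 0 and 1 counts in the day 0 libraries, so its log2 shares there rest largely on counting error and the pseudocount. Every r with CAMSAP2 carries this limit. These values describe libraries that fall into day 0 and later clusters and share their total of back-splice reads, so they carry no test.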

How the data were processed

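The deposited table gives, for each circRNA structure, the back-splice read counts that the authors obtained per library with PTESFinder (version 1) against GENCODE 19 transcripts on hg19, as raw counts with no normalisation. Linear junctions were not used here. The 15 libraries were grouped by their labels. The wells were plated together, so p-values measure the spread between these samples. Structures were assigned to genes by transcript, or by exon ends, and counts were summed per gene.

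Members and gene lists were chosen with earlier results of these data known. Counts with at least 10 reads in all libraries were fitted over all 5 groups with edgeR 4.0.16 (quasi-likelihood test, R 4.3.3), with sequenced reads as library sizes, and Benjamini-Hochberg adjusted p under 0.05 was called. For day 90 replicates 1 and 2 the read numbers could not be told apart and their mean was used. Shares were compared by exact permutation of libraries (two-sided, Python 3.11.15, scipy 1.17.1). Wilson intervals and the floor of 3 counts cover counting error only. The edgeR script was tested on simulated data. Replicates of a group differed by more than sampling noise. Deviations from the group means were correlated in 457 genes. They exceeded 0.1 in all 3 same-numbered pairs of treated and untreated libraries at day 45 (0.339 to 0.535) and at day 90 (0.112 to 0.364). The numbers were therefore taken to pair libraries within a day, but not across days or with day 0. The labels state no pairing, and some untreated and treated libraries of different number within a day also exceeded 0.1. At day 45 these were replicate 2 with IGF-1 replicate 3 (0.274) and replicate 3 with IGF-1 replicate 2 (0.104). At day 90 it was replicate 3 with IGF-1 replicate 1 (0.125), above the 0.112 of the pair numbered 1. Same-numbered day 45 libraries shared a sequencing quality group, which is a range of quality set here and not a batch given in the labels. Day 0 libraries of the same number fell in the same groups but did not deviate with those of day 45 (-0.120 to 0.026). Paired cultures and a shared batch cannot be told apart from the labels, and neither was tested. Alternatives were TMM and DESeq2 1.42.0 size factors, the DESeq2 Wald test, other filters, a sequencing quality term, the other read numbers, a replicate block over all groups or within each day and leaving out each replicate.

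Named circRNAs were those with at least 100 reads or a call outside the day 0 comparisons. Pathway genes named were the 3 of each list with the most reads. Exceptions are stated where they occur. Sequences were read from the GRCh37 reference, and BLAST+ 2.17.0 compared introns.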

Additional observations from a re-analysis of the deposited data

Results flagged for a closer look

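The IGF-1 effect on the balance between the paralogs was flagged as different between the days only by an unadjusted and unplanned test without pairing. The CAMSAP1 share of CAMSAP1 plus CAMSAP2 back-splice reads was 89.4% ± 2.53 without and 93.3% ± 0.988 with IGF-1 at day 45, and 92.2% ± 0.786 without and 91.3% ± 1.25 with IGF-1 at day 90 (SD, n = 3 each). The IGF-1 effect at day 90 minus that at day 45 was -4.80 percentage points (two-sided exact permutation test of treatment within days, p = 0.025, with 0.005 the smallest possible). It did not pass after adjustment over 3 such comparisons (exact permutation, adjusted p = 0.075). The null of this test is no IGF-1 effect at either day, so it does not single out a difference between the days. At day 45 the treated and untreated libraries did not overlap (exact permutation p = 0.1, the smallest that 3 against 3 allow), and at day 90 they overlapped (exact permutation p = 0.4). Same-numbered treated and untreated libraries of a day were taken as pairs, which the labels do not state. The pair differences were 5.70, 3.81 and 2.11 points at day 45 and -0.205, 0.341 and -2.91 points at day 90. With the replicate block within each day, as sign flips of these 6 differences, the exact permutation p was 0.0938 (smallest possible 0.0312), so the unadjusted call was lost. With each replicate left out in turn, which like the block was added after seeing the data, the difference ranged from -5.75 to -3.36 points. The exact permutation p was 0.065 without day 45 IGF-1 replicate 2, 0.06 without day 45 IGF-1 replicate 3 and 0.05 without day 90 replicate 3.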

How the results depend on the processing

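Library scaling changed most. Of 13 circRNAs tested at day 45 against day 0, 8 were called in the fit per sequenced read, all higher, and 1 with TMM. DESeq2 size factors called 1, circCAMSAP1:E7-E5 as lower (log2 change -3.77). It had 2, 0 and 5 counts at day 0 and 0, 1 and 1 at day 45. With no count filter 5 of 25 were called, and leaving out single replicates gave 5 to 9. At day 90 against day 0 (5), TMM gave 1, size factors 0 and leaving out replicates 3 to 5. Of the 2 genes, TMM left 1 at day 45 and 1 at day 90. Size factors called CAMSAP2 higher and CAMSAP1 lower at day 45, and 0 at day 90. All these calls use the day 0 contrast on which the genes were selected, so nothing is read from them. With TMM and size factors in turn, the log2 change of CAMSAP1 was -0.34 and -0.65 at day 45 and -0.13 and -0.39 at day 90 against day 0, 0.21 and 0.26 at day 90 against day 45, and -0.040 and -0.11 with IGF-1 at day 90. For circCAMSAP1:E3-E2 it was -0.56 and -0.30 from day 0 with size factors, 0.17 and 0.26 at day 90 against day 45, and -0.071 and -0.17 with IGF-1 at day 90. For circCAMSAP2:E4-E2 it was 0.033 and 0.11 at day 90 against day 45. The median of all genes moves with the scaling by construction. Leaving out single replicates, the IGF-1 change ranged from -0.044 to 0.26 at day 45 and -0.084 to 0.32 at day 90 for CAMSAP1, from -0.056 to 0.31 and -0.14 to 0.23 for circCAMSAP1:E3-E2, and from -0.57 to 0.19 at day 45 for circCAMSAP2:E4-E2. The CAMSAP2 RPM difference with IGF-1 ranged from -0.0660 to 0.00303, the latter without day 45 replicate 1, and that of CAMSAP1 from 0.0369 to 0.357. The CAMSAP1 share of both genes, later minus day 0, ranged from -8.09 to -5.43 points. The share of CAMSAP2 reads on its leading junction differed by 18.7 points between later libraries and day 0, by -15.8 with reads pooled, and by -31.3 to 68.7 without single day 0 replicates, resting on 6 reads at day 0; no result is drawn from it. Across days same-numbered libraries did not deviate together. With the replicate block over all groups the members called stayed at 8 and 5 circRNAs and 2 and 2 genes from day 0, and at 0 elsewhere, and with the replicate block within each day, added after seeing the data, 0 members were called with IGF-1. Sign flips within pairs gave exact permutation p of 0.563 for CAMSAP1 and 0.656 for CAMSAP2 RPM with IGF-1. Day 0 libraries held the fewest back-splice reads (14992 to 17929), at sequencing depths within the range of the others, and this limits CAMSAP2 and the minor circles most. Series-wide calls at day 45 ranged from 510 to 5221 circRNAs (5146 in the fit per sequenced read) and from 617 to 3170 genes (3148), and at day 90 from 554 to 2821 circRNAs (2754) and from 622 to 2288 genes (2270). Between day 45 and day 90 they ranged from 1 to 13 circRNAs (10) and from 1 to 37 genes (19).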
